A study of Mus musculus with 40 samples.

Results

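Neurotrophins are secreted proteins that keep neurons alive and shape their synapses. BDNF acts mainly through the receptor tyrosine kinase TrkB and neurotrophin-3 mainly through TrkC, while the p75 receptor, together with sortilin, binds the uncleaved proneurotrophins. *Bdnf* and *Vgf* transcription is known to follow neuronal activity, and BDNF and TrkB have long been studied in hippocampal epilepsy. Described here are 7 genes of this system, taken by their gene symbols: the ligands *Bdnf* and *Ntf3*, the receptors *Ntrk2* (TrkB), *Ntrk3* (TrkC) and *Ngfr* (p75), the sorting receptor *Sort1* (sortilin) and the secreted peptide precursor *Vgf*. Each matched 1 of the 47643 Ensembl genes in the count tables.

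The data are 40 RNA-seq libraries, 20 of hippocampus and 20 of frontal cortex. All came from wild-type Swiss Webster mice that were born germ-free, were 6 to 8 weeks old and were killed on day 4 after colonization with human stool. The stool of each of 10 donors with epilepsy was collected before (pre-KD) and during (post-KD) a ketogenic diet, so each region has 10 pre-KD and 10 post-KD libraries, and the mice themselves were not on that diet. Every library is a pool of 6 recipients of 1 stool sample, called a cohort here, so variation from mouse to mouse within a pool cannot be measured. All levels are those of colonized mice, without an uncolonized group.

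Hippocampal libraries held 1140756 to 1947416 gene counts and frontal cortical ones 1188447 to 2095352, so that 3 counts, the upper limit that a count of 0 allows, correspond to between 1.496 and 2.83 CPM (counts scaled to the library size after TMM normalization). The 8 libraries of donors 9 and 10 stood apart from the other 32. Although the methods describe female recipients, 4 Y-linked genes (*Ddx3y*, *Eif2s3y*, *Kdm5d* and *Uty*) summed to 79.0 to 178.8 CPM in these 8 libraries against 0 to 15.9 CPM in the others, and *Xist*, which is expressed from the inactive X chromosome, was at 3.399 to 27.2 CPM against 449.7 to 729.0 CPM. These donors have both a pre-KD and a post-KD cohort in both regions, and results are given with and without them where they matter. Markers of other tissue differed between the regions too. Of 8 hippocampal neuron markers, 5 were called higher in the hippocampus, but all 6 striatal markers tested were called higher in the frontal cortex, at a summed 500.2 to 1103 CPM per library against 33.0 to 294.8 CPM in the hippocampus, with *Drd2* at 0 in 3 of the 4 groups. Choroid plexus markers summed to 460.6 to 4265 CPM per hippocampal library and 1.05 to 582.4 CPM per frontal cortical one, with *Kcne2* at 0 in post-KD frontal cortex.

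Per kilobase of annotated exon, *Vgf* had the highest mean of the 7 genes in both regions, with a hippocampal level of 29.8 ± 8.95 and a frontal cortical level of 35.6 ± 8.06 CPM per kb (SD, n = 20 libraries), above *Sort1* in 14 of 20 hippocampal and 19 of 20 frontal cortical libraries. The values are RNA per tissue, so fewer cells of a type and less RNA per cell cannot be told apart. *Sort1* (22.9 ± 6.26 and 20.9 ± 5.002 CPM per kb) and *Ntrk2* (20.2 ± 4.16 and 20.8 ± 2.75 CPM per kb) came next and did not differ from each other beyond their spread: *Sort1* was above *Ntrk2* in 12 of 20 hippocampal and 10 of 20 frontal cortical libraries. *Bdnf* and *Ntrk3* formed a lower pair. *Bdnf* stood at 7.98 ± 4.44 (hippocampus) and 5.48 ± 2.95 CPM per kb (frontal cortex), and *Ntrk3* at 7.90 ± 1.93 and 6.48 ± 1.43, with *Bdnf* above *Ntrk3* in 8 of 20 hippocampal libraries and below it in 14 of 20 frontal cortical ones. *Ntf3* (1.51 ± 2.41 and 0.293 ± 0.742 CPM per kb) and *Ngfr* (1.13 ± 2.63 and 0.820 ± 1.075 CPM per kb) were near the limit of detection and could not be ordered. Exon lengths ran from 1.71 kb for *Ntf3* to 30.2 kb for *Ntrk3*. They are of all annotated exons of a gene merged (43 for *Ntrk3*, 9 for *Bdnf*), not of 1 transcript. Before division by length, the hippocampal means were 389.4 CPM for *Ntrk2*, 238.3 for *Ntrk3*, 88.7 for *Vgf* and 49.6 for *Bdnf*. The order and the pairing above thus depend on these lengths. The labels name a whole-transcript kit and the list of reagents a 3′ tag kit, for which counts would not scale with length. The order per kilobase could hold only for the first.

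**Figure D1:**
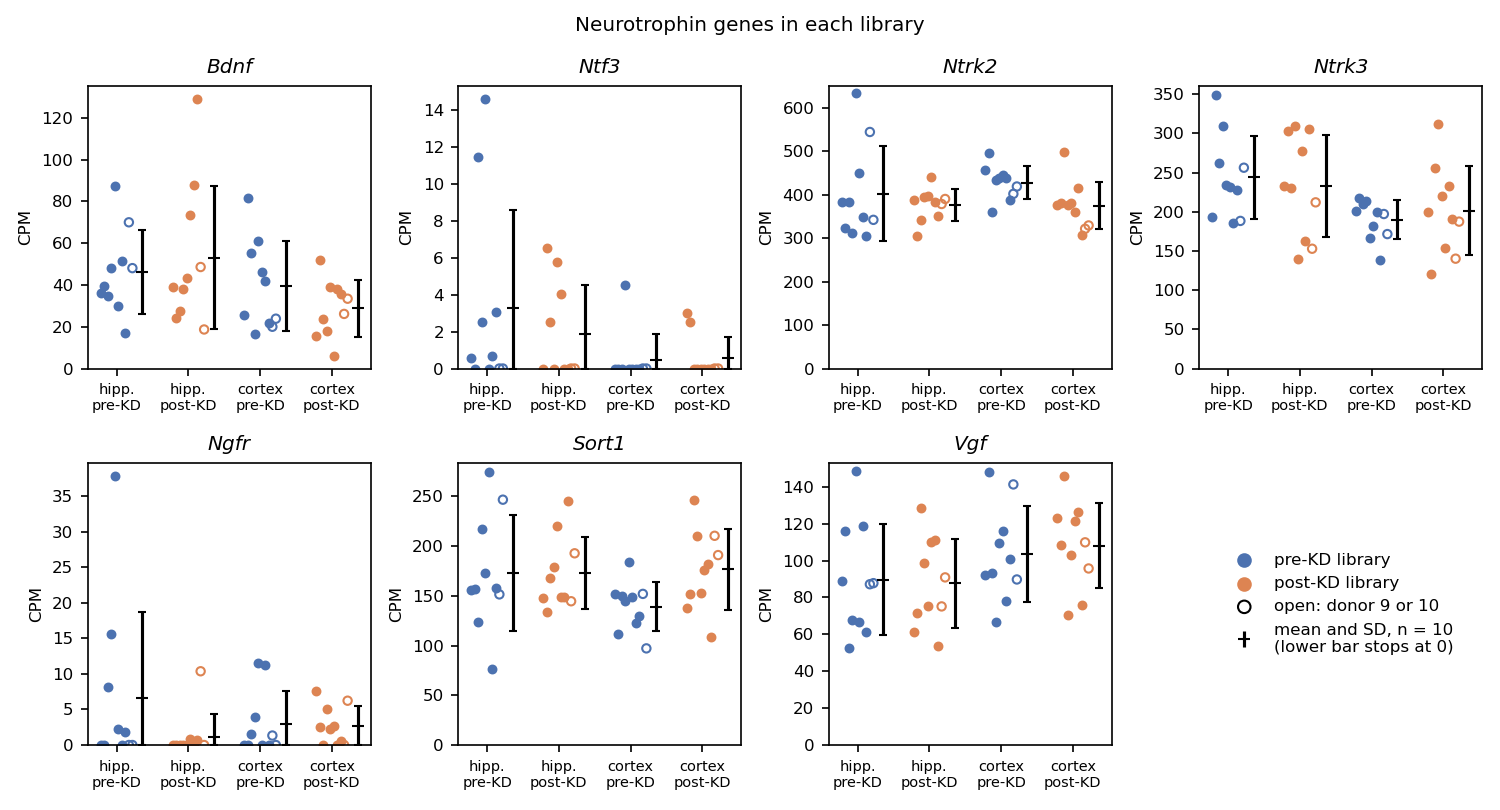
CPM (vertical axis, linear, from 0) of each of the 7 genes in each of 40 libraries, by region and condition, with the mean and SD of 10 libraries beside each group. In every gene the pre-KD and post-KD points of a region overlap, and *Ntf3* and *Ngfr* lie at 0 in many libraries, in all 8 of donors 9 and 10 (open circles) for *Ntf3*.

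*Bdnf* (ENSMUSG00000048482, GRCm38 chromosome 2 from 109674700 to 109727007, plus strand) is transcribed from several alternative first exons, and the deposited value is 1 count per gene, so their transcripts cannot be told apart. RefSeq gives 7 *Bdnf* start sites on GRCm38.p6, each with a promoter window of the same length. The cAMP response element (CRE, TGACGTCA, the site bound by CREB, which reads the same on both strands) was not among the letters of any of these windows and was found in 1.79% of all 32851 promoter windows. A variant of it, TCACGTCA, began 38 bases before start 3 of *Bdnf* in genomic order, on the plus strand, and 0.441% of all windows held it on either strand. This stretch up to the start site is shown because it is the only match to either sequence among the 11 windows found for *Bdnf*, *Ntf3*, *Ntrk2* and *Ngfr*, with the variant in capitals (chr2:109692338-109692435, plus strand):
Bdnf start 3: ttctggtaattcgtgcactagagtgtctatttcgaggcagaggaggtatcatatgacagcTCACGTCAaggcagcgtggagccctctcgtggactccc
No measurement here bears on the binding of any factor to it.

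In the hippocampus *Bdnf* ran from 17.2 to 87.3 CPM over the pre-KD libraries, with a median of 43.7 CPM, and from 18.7 to 129.1 CPM over the post-KD libraries, with a median of 41.2 CPM. The groups overlapped, with 2 post-KD libraries (87.8 and 129.1 CPM) above every pre-KD one. The means were 46.2 ± 20.2 and 53.0 ± 34.3 CPM (SD, n = 10 libraries each). The fold change on the log2 scale was 0.19, with a standard error (SE) of 0.33 and a 95% interval of -0.47 to 0.85 (adjusted p = 0.9998 in edgeR's quasi-likelihood test with Benjamini-Hochberg adjustment, the test used throughout). Of the 10 donors, 4 had more *Bdnf* post-KD and 6 had less. The 3 highest post-KD libraries, those of donors 6, 7 and 8 at 73.3, 87.8 and 129.1 CPM, came from donors whose pre-KD libraries were at 30.0, 51.4 and 17.2 CPM. Without the cohorts of donor 8 the fold change turned to -0.15, and without donors 9 and 10 it was 0.42 (adjusted p = 0.962).

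Frontal cortical *Bdnf* ran from 16.4 to 81.5 CPM pre-KD (median 33.9 CPM) and from 6.004 to 51.9 CPM post-KD (median 29.8 CPM). The low post-KD value was 9 counts in the library of donor 6, whose hippocampus was among the 3 highest. The means of 39.4 ± 21.6 and 28.8 ± 13.5 CPM gave a log2 fold change of -0.46 (SE 0.31, 95% interval -1.09 to 0.17, adjusted p = 0.817), lower post-KD for 6 of 10 donors. Over the 19 alternatives the value lay between -0.31 and -0.63, the latter without donors 9 and 10 (adjusted p = 0.633). The signs were opposite in the 2 regions, but the difference between the regional changes was 0.51 on the log2 scale (hippocampus minus frontal cortex) with a 95% interval of -0.51 to 1.54 and did not pass (unadjusted p = 0.327, adjusted p = 1 in edgeR). Over the 17 alternatives for this difference it lay between 0.14 and 0.98, with an unadjusted p of 0.0895 or more.

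**Figure D2:**
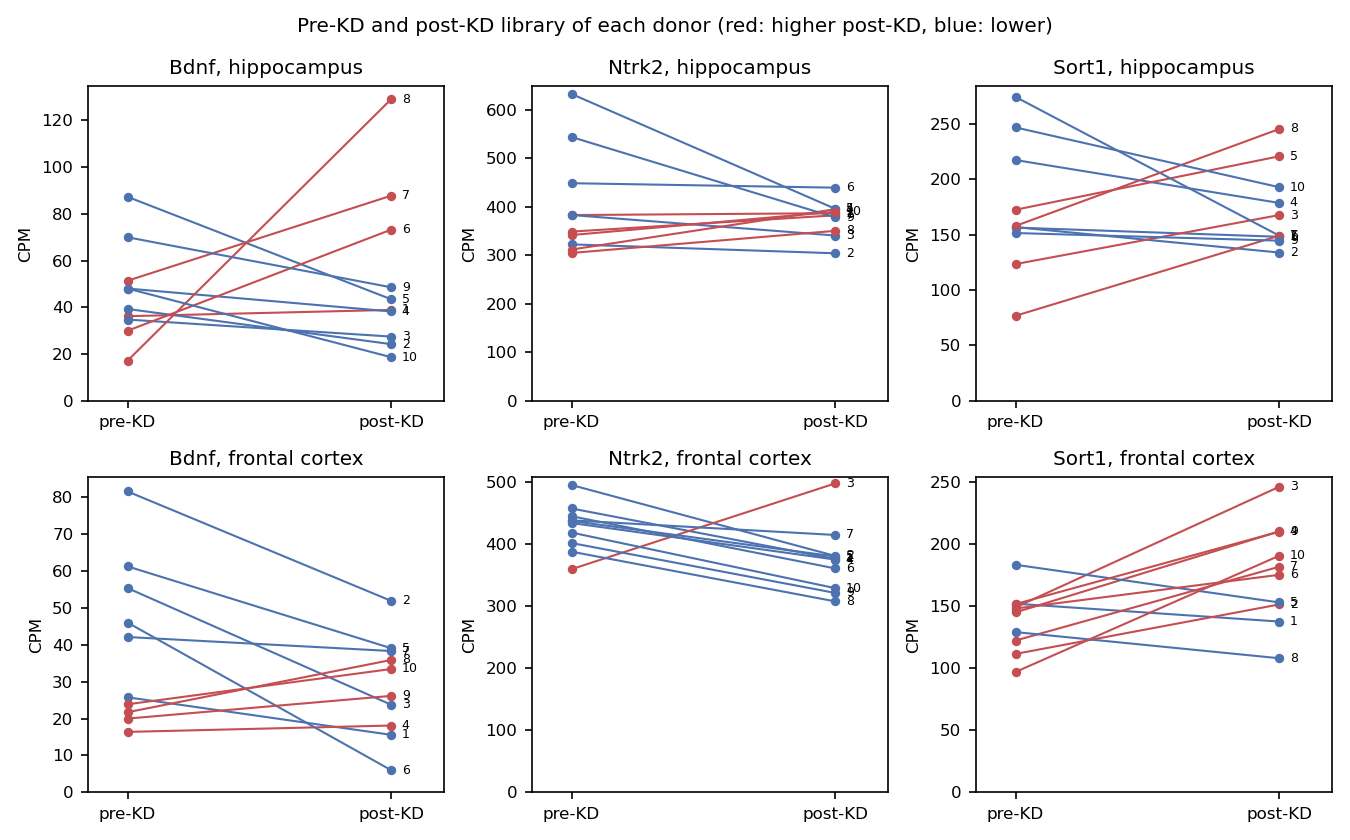
CPM of *Bdnf*, *Ntrk2* and *Sort1* (vertical axes, linear, from 0) in the pre-KD and post-KD library of each of 10 donors, hippocampus above and frontal cortex below, with 1 line per donor. In the frontal cortex *Ntrk2* falls along 9 of 10 lines and *Sort1* rises along 7 of 10, while *Bdnf* rises along 4 and falls along 6 in both regions.

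*Ntf3* (ENSMUSG00000049107, chromosome 6 from 126101412 to 126166910, minus strand) encodes neurotrophin-3 and had 97 counts over all 40 libraries, with no count in 27. In the hippocampus it ran from 0 to 14.6 CPM pre-KD, with 4 of 10 libraries at 0, and from 0 to 6.52 CPM post-KD, with 6 of 10 at 0. Of its 78 hippocampal counts 41 fell in 2 libraries, a spread like that of other genes with as few counts (CV, the SD as a percentage of the mean, of 161.0% pre-KD and 140.4% post-KD, against medians of 148.8% and 211.0%). Of the frontal cortical libraries, 1 pre-KD library (donor 4, 8 counts) and 2 post-KD libraries (donors 1 and 2, 6 and 5 counts) held all 19 counts. All 8 libraries of donors 9 and 10 were at 0 in both regions. The fitted changes post-KD were -0.79 in the hippocampus (95% interval -3.51 to 1.94, adjusted p = 0.9998; -1.39 without donor 2, -0.38 without donor 3, -0.48 without donor 5 and -1.37 with the donor block) and 0.25 in the frontal cortex (-2.39 to 2.89, adjusted p = 0.998), the latter with an interval that leaves a 4-fold change in either direction undecided. Donor 4, 1 or 2 decided the frontal cortical value, which was 3.21 without the first (unadjusted p = 0.00944, adjusted p = 0.172), -0.69 without the second and -0.49 without the last.

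*Ntrk2* (ENSMUSG00000055254, chromosome 13 from 58806569 to 59133970, plus strand), which encodes TrkB, had the highest total count of the 7 genes, with 409 to 923 counts per library. Frontal cortical levels ran from 359.7 to 495.3 CPM pre-KD (median 435.7 CPM) and from 307.8 to 497.9 CPM post-KD (median 375.7 CPM). The post-KD library of donor 3 was the highest of the region, whereas the other 9 donors were lower post-KD. The mean was 427.6 ± 38.0 CPM before and 374.4 ± 54.2 CPM after, which gave a log2 fold change of -0.19 (SE 0.10, 95% interval -0.40 to 0.01), which did not pass (unadjusted p = 0.0650, adjusted p = 0.585 in edgeR). Without donor 3 the change was -0.27 (unadjusted p = 0.0135, adjusted p = 0.236), and without donors 9 and 10 it was -0.17 (unadjusted p = 0.154, adjusted p = 0.821). DESeq2 gave an unadjusted p of 0.0275 and an adjusted p of 0.948. In the hippocampus *Ntrk2* ran from 305.1 to 632.9 CPM pre-KD (median 366.2 CPM) and from 304.4 to 439.7 CPM post-KD (median 384.9 CPM), higher for 5 donors and lower for 5, with a log2 fold change of -0.10 (SE 0.14, adjusted p = 0.9998).

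*Ntrk3* (ENSMUSG00000059146, chromosome 7 from 78175959 to 78738012, minus strand), the TrkC gene, ran from 186.2 to 349.2 CPM in pre-KD and from 140.2 to 309.0 CPM in post-KD hippocampus. Frontal cortical values were 138.7 to 217.1 CPM pre-KD and 121.2 to 311.8 CPM post-KD. The post-KD ranges reached further down in both regions and, in the frontal cortex, further up. The log2 fold changes were -0.08 (SE 0.16, hippocampus) and 0.08 (SE 0.14, frontal cortex), with adjusted p of 0.9998 and 0.996 in edgeR.

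*Ngfr* (ENSMUSG00000000120, chromosome 11 from 95568818 to 95587735, minus strand) encodes p75, which binds all neurotrophins and in the adult forebrain is known mainly from basal forebrain cholinergic neurons. It had no count in 20 of 40 libraries. In the pre-KD hippocampus it was at 37.8 CPM in the library of donor 5, 15.6 CPM in that of donor 4, 8.16 CPM in that of donor 3, 2.31 and 1.84 CPM in those of donors 6 and 8, and at 0 in the other 5. In the post-KD hippocampus it was at 10.4 CPM for donor 9, 0.805 CPM for donor 6, 0.656 CPM for donor 8 and 0 for the other 7. A single library thus held 52 of 99 pre-KD counts and another 16 of 18 post-KD counts. The log2 fold change was -2.39 with a 95% interval of -5.06 to 0.28 (unadjusted p = 0.0787, adjusted p = 0.643 in edgeR). It was -1.20 without donor 5 (adjusted p = 1), -4.95 without donor 9 (unadjusted p = 0.00216, adjusted p = 0.1101) and -5.01 without donors 9 and 10 (adjusted p = 0.151). In the frontal cortex *Ngfr* ran from 0 to 11.51 CPM pre-KD and from 0 to 7.54 CPM post-KD, with 5 and 3 libraries at 0, and its log2 fold change of -0.16 (95% interval -2.35 to 2.03, adjusted p = 0.998) was positive without donor 5 (0.41) or donor 7 (0.50). Markers of cholinergic neurons (*Chat*, *Slc18a3* and *Slc5a7*) summed to 0 to 5.19 CPM in pre-KD and 0 to 15.98 CPM in post-KD hippocampus, and *Slc18a3* was at 0 in the former. The hippocampal change of *Slc18a3* was opposite in sign to that of *Ngfr* and did not pass (unadjusted p = 0.00224, adjusted p = 0.0774 in edgeR). Frontal cortical sums were 0.666 to 28.8 CPM pre-KD and 3.396 to 63.4 CPM post-KD. Their part in the *Ngfr* values was not tested.

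*Sort1* (ENSMUSG00000068747, chromosome 3 from 108284082 to 108361511, plus strand), which sorts BDNF into the regulated secretory pathway and is the co-receptor of p75 for proneurotrophins, had the smallest p of the 7 genes in a post-KD comparison of the frontal cortex. It ran from 97.1 to 183.6 CPM pre-KD, with a median of 146.8 CPM, and from 108.2 to 246.5 CPM post-KD, with a median of 178.8 CPM. Of the post-KD libraries 4 lay above the highest pre-KD one. The means of 139.1 ± 24.6 and 176.6 ± 40.5 CPM gave a log2 fold change of 0.34 (SE 0.14, 95% interval 0.05 to 0.63), and *Sort1* was higher post-KD for 7 of 10 donors. The unadjusted p was 0.0209 and the adjusted p 0.310 in edgeR, so it did not pass over all genes. Without donors 9 and 10, whose values were 151.9 and 97.1 CPM pre-KD and 210.3 and 190.9 CPM post-KD, the change was 0.25 (unadjusted p = 0.128). The unadjusted p was also above 0.05 without donor 3 (0.0616) or donor 10 (0.0697), and below it under the other 16 of the 19 alternatives. In the hippocampus *Sort1* ran from 76.8 to 274.1 CPM pre-KD and from 133.8 to 245.2 CPM post-KD, and the change was -0.01 (SE 0.18, 95% interval -0.38 to 0.35, adjusted p = 0.9998). The difference between the regional changes was -0.29 (hippocampus minus frontal cortex, 95% interval -0.77 to 0.20, unadjusted p = 0.246). That difference lay between -0.42 and -0.14 over its 17 alternatives, with an unadjusted p of 0.111 or more. Of 71 markers of cell types and tissues in the frontal cortical comparison 0 passed after adjustment and 4 had an unadjusted p under 0.05 (5.63% against 9.68% of all genes): 2 of 4 blood markers (summed 390.4 to 1156 CPM pre-KD and 548.0 to 1390 CPM post-KD) and 2 of 6 striatal ones (500.2 to 1032 and 714.6 to 1103 CPM). These 4 were higher post-KD, and over each list 2 of 4 blood and 4 of 6 striatal markers were. In the hippocampal comparison 0 of 72 markers passed and 6 had an unadjusted p under 0.05 (4 higher and 2 lower, 8.33% against 10.1% of all genes). These were 3 of 8 hippocampal neuron markers (2 higher, 1 lower), 1 oligodendrocyte and 1 cholinergic marker (higher) and 1 striatal marker (lower). All 6 striatal markers tested were lower there (median -0.58). For the difference between the regional changes (hippocampus minus frontal cortex), 7 of 73 markers had an unadjusted p under 0.05 (9.59% against 2.22% of all genes) and 0 passed. All 7 differences were negative, those of 4 of 6 striatal, 2 of 4 blood and 1 of 4 endothelial markers. Their part in the values of *Sort1* and the other 6 genes was not tested.

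*Vgf* (ENSMUSG00000037428, chromosome 5 from 137026392 to 137033351, plus strand), named for its induction by nerve growth factor, encodes a precursor of secreted neuropeptides. It ran from 52.7 to 148.4 CPM in pre-KD and from 53.8 to 128.4 CPM in post-KD hippocampus. Its frontal cortical range was from 66.7 to 148.2 CPM pre-KD and from 70.7 to 145.6 CPM post-KD. The groups overlapped over nearly their whole range, and the log2 fold changes were -0.04 (SE 0.24, adjusted p = 0.9998) and 0.06 (SE 0.16, adjusted p = 0.998) in edgeR.

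Across the 7 genes, 0 passed an adjusted p of 0.05 in the hippocampal post-KD comparison, where 0.0057% of the 17529 genes tested did, and 0 had an unadjusted p under 0.05, where 10.1% did. Among frontal cortical comparisons 0 passed after adjustment (background 0.0056% of 17873 genes), and 1 of 7, *Sort1*, had an unadjusted p under 0.05 (background 9.68%). DESeq2, the tool the authors used, likewise passed 0 in either region (background 0% and 0.0112%) and gave an unadjusted p under 0.05 to 0 hippocampal and 2 frontal cortical values, those of *Ntrk2* and *Sort1* (background 3.42% and 4.62%). For the difference between the regional changes 0 passed (background 0.0154% of 19422 genes) and 0 had an unadjusted p under 0.05 (background 2.22%), in DESeq2 also 0 by either rule (background 0% and 4.89%). *Ngfr* had the smallest p of the 7 for this difference (-3.96, 95% interval -8.57 to 0.64, unadjusted p = 0.0918, adjusted p = 1 in edgeR), with an unadjusted p under 0.05 in 3 of 17 alternatives, without donor 7 (0.0470), donor 9 (0.0272) or donors 9 and 10 (0.0450). The 95% intervals show the changes left possible by these fits. In simulated data the post-KD fits called more unchanged genes than the threshold allows, so the intervals may be too narrow. For *Ntrk2* and *Ntrk3* in the frontal cortex they ran from -0.40 to 0.01 and from -0.19 to 0.36, but for *Ngfr* in the hippocampus from -5.06 to 0.28.

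**Figure D3:**
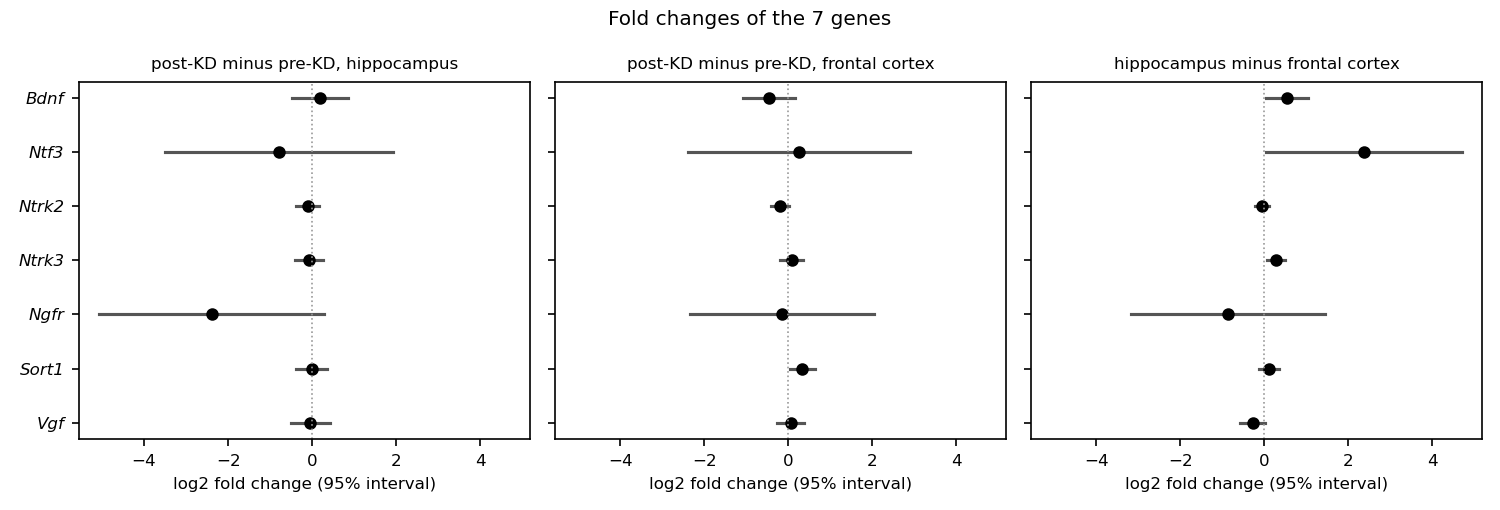
Log2 fold changes (horizontal axis, points) with 95% intervals (lines) of the 7 genes for post-KD minus pre-KD in each region and for hippocampus minus frontal cortex, from edgeR. The intervals of *Ntf3* and *Ngfr* are several times wider than those of the other 5 genes, and the interval leaves out 0 for *Sort1* in the frontal cortex and for *Bdnf*, *Ntf3* and *Ntrk3* between the regions, before adjustment over all genes.

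Between the regions, with each cohort giving 1 library of each, 0 of the 7 genes passed after adjustment in edgeR, where 2.85% of 19422 genes did. An unadjusted p under 0.05 was reached by 3 of 7, where 10.9% of all genes reached it, all 3 higher in the hippocampus, while the median log2 difference of all genes was -0.17. DESeq2 passed 1, *Ntrk3*, where it passed 5.32% of all genes. *Ntrk3* was higher in the hippocampus of 13 of 20 cohorts, at a log2 difference of 0.28 (SE 0.11, 95% interval 0.06 to 0.49, adjusted p = 0.209 in edgeR and 0.0364 in DESeq2). It was 0.35 among pre-KD and 0.20 among post-KD cohorts, 0.29 without donors 9 and 10 and 0.20 without donor 2, with unadjusted p of 0.0240, 0.173, 0.0178 and 0.0915. *Bdnf* was higher in the hippocampus of 14 of 20 cohorts, by 0.54 (SE 0.26, 95% interval 0.03 to 1.05, adjusted p = 0.410). That difference was 0.29 among pre-KD cohorts (adjusted p = 0.961) and 0.80 among post-KD cohorts (adjusted p = 0.532), and the unadjusted p was above 0.05 when donor 1, 4, 6, 7, 8 or 9 was left out, or donors 9 and 10 together (0.48, unadjusted p = 0.0950). *Ntf3* was higher in the hippocampus of 9 cohorts, lower in 2 and at 0 in both regions in 9, with 78 counts against 19 and a difference of 2.37 (SE 1.19, 95% interval 0.04 to 4.69, adjusted p = 0.443). Without donor 5 it was 1.68 and without donor 3 it was 1.73, with unadjusted p of 0.166 and 0.155, and among post-KD cohorts it was 1.78 (unadjusted p = 0.331). DESeq2 gave 1.65 (unadjusted p = 0.566), and the unadjusted p was under 0.05 in 10 of 19 alternatives.

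*Vgf* went the other way, lower in the hippocampus of 16 of 20 cohorts by 0.28 (SE 0.15, 95% interval -0.58 to 0.02, adjusted p = 0.533). *Ntrk2* (-0.05, SE 0.09, adjusted p = 0.892) and *Sort1* (0.11, SE 0.12, adjusted p = 0.811) differed by little, and the interval of *Ntrk2*, -0.22 to 0.12, bounds its difference between the regions more tightly than that of any other of the 7 genes. For *Ngfr* the value of -0.86 (95% interval -3.17 to 1.44, adjusted p = 0.867) turned to 0.42 in edgeR with adjusted deviances and to 1.095 among pre-KD cohorts, so no direction can be given. These differences stand beside those of cell type markers. Of 73 markers tested 26 were called (35.6%, against 2.85% of all genes). In the hippocampus all 6 striatal markers tested, 2 of 3 cholinergic (median -4.37) and 3 of 6 inhibitory interneuron markers (median -0.50) were called lower. So were 3 of 8 cortical neuron markers and 1 of 4 markers of neurons in general (all 4 lower, median -0.13). Called higher were 5 of 8 hippocampal neuron, 2 of 8 cortical neuron, 1 of 4 meningeal and 3 of 5 choroid plexus markers. Their part in the values of the 7 genes and of the pathway genes was not tested.

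**Figure D4:**
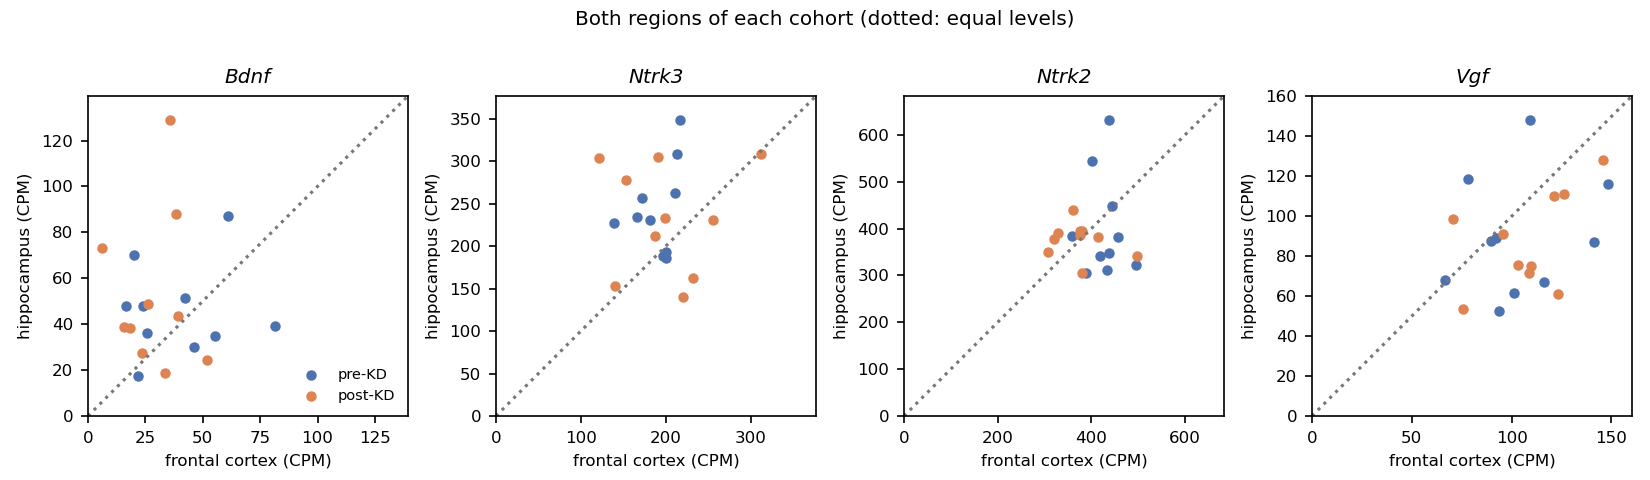
CPM in the hippocampus (vertical axis) against CPM in the frontal cortex (horizontal axis) of the same cohort for *Bdnf*, *Ntrk3*, *Ntrk2* and *Vgf*, 20 cohorts each, with a dotted line at equal levels. For *Bdnf* 14 points and for *Ntrk3* 13 lie above the line, for *Vgf* 16 lie below it, and the points of no gene line up along it.

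No relation between the 2 regions of a cohort could be detected for these genes. Over 20 cohorts the Pearson correlation of log2 CPM between hippocampus and frontal cortex lay between -0.11 for *Sort1* and 0.32 for *Vgf* (r = 0.32, permutation p = 0.174, Spearman rho = 0.31, permutation p = 0.187), and 0 of 7 had a permutation p under 0.05. For *Vgf*, r was 0.23 without the 2 cohorts farthest from the median. The adjusted p over the 7 relations was 0.961 for all of them by r. For *Bdnf*, r was -0.07 (rho = -0.03).

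The 7 genes also varied largely apart from each other. Of the 42 pairs, 21 per region, 0 had an adjusted permutation p under 0.05 and 1 an unadjusted one: *Ntf3* with *Ngfr* in the hippocampus (r = 0.50, p = 0.0188, adjusted p = 0.790, rho = 0.56). Both genes are sparse and both were highest in the pre-KD library of donor 5, and r was 0.08 without the 2 libraries farthest from the median of *Ntf3*. In the frontal cortex the rank correlation of that pair was rho = 0.66 (permutation p = 0.00214, adjusted p = 0.0899), over libraries that are mostly at 0 for *Ntf3*. The ligand *Bdnf* and its receptor *Ntrk2* had r = 0.42 in the hippocampus (permutation p = 0.0666, adjusted p = 0.898), rho = 0.26. The pre-KD hippocampal library of donor 5 had the fewest genes with a count of all 40 libraries (10223) and was the highest of its group for 5 of the 7 genes, *Bdnf* (87.3 CPM), *Ntf3* (14.6 CPM), *Ntrk2* (632.9 CPM), *Ngfr* (37.8 CPM) and *Vgf* (148.4 CPM).

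**Figure D5:**
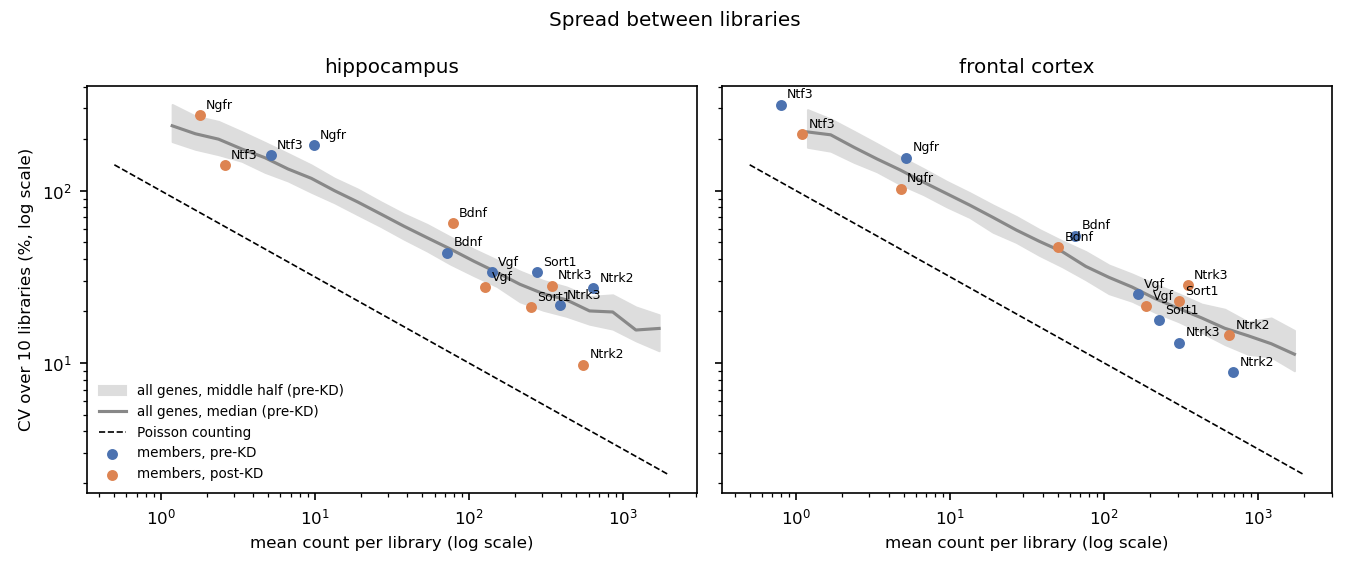
Coefficient of variation (CV) over the 10 libraries of a group (vertical axis, %, log scale) against the mean count per library (horizontal axis, log scale) for the 7 genes in each region, with the median and the middle 50% of all genes in the pre-KD group (gray) and the CV that Poisson counting alone would give (dashed). All member points lie above the counting line, with *Bdnf* in post-KD hippocampus at 64.8% against 11.3% from counting.

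The spread between libraries was above that of counting and, for most of the 7 genes, like that of other genes with as many counts. *Bdnf*, with a mean of 50.3 to 78.6 counts per library, had a CV of 43.7% in pre-KD and 64.8% in post-KD hippocampus and of 54.9% and 46.9% in the frontal cortex, where counting alone would give 11.3% to 14.1%. The median CV of genes whose mean count was within 1.5-fold of it was 46.8%, 45.4%, 39.9% and 45.9%. *Ntrk2* varied least, at 8.88% in pre-KD frontal cortex and 9.77% in post-KD hippocampus, against medians of 15.6% and 20.1% for genes of like count, but reached 27.0% in pre-KD hippocampus (median 20.6%). Its post-KD hippocampal CV was below that of all but 1.102% of the 363 genes of like count.

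Along the rest of the pathway, a list of 80 genes (other ligands, processing enzymes, p75 partners, Trk adaptors and kinases, regulators of *Bdnf* transcription and feedback inhibitors) was compared in the same way. In the hippocampus 77 were tested, 0 passed after adjustment, 3 had an unadjusted p under 0.05 (3 higher and 0 lower, 3.90% against 10.1% of all genes), and the median log2 fold change was 0.01 against -0.01 for all genes. Among these were *Ntf5*, the gene of neurotrophin-4, at 3.45 (SE 1.48, adjusted p = 0.288), and *Pcsk7*, a proprotein convertase, at 2.05 (SE 0.97, adjusted p = 0.418). Both SEs were well above that of *Ntrk2* in this comparison (0.14), and that of *Ntf5* was near that of the sparse *Ntf3* (1.37). For the frontal cortex 74 were tested, 0 passed after adjustment and 4 had an unadjusted p under 0.05 (1 higher and 3 lower, 5.41% against 9.68% of all genes), with a median of -0.05 against 0.01 for all genes. *Camk2a*, a calcium-dependent kinase of the synapse, had the smallest p at -0.20 (SE 0.07, adjusted p = 0.152), followed by the small GTPase *Rap1a* at -0.67 (SE 0.33, adjusted p = 0.488).

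Between the regions 79 pathway genes were tested and 7 passed (8.86%, against 2.85% of all genes), 1 higher and 6 lower in the hippocampus, with a median log2 difference of -0.07. Of the 11 regulators of *Bdnf* transcription and CREB signaling, 4 were lower in the hippocampus: *Mef2c*, a transcription factor of activity-dependent genes, at -0.60 (SE 0.07, adjusted p = 4.2e-15), the kinase *Camk4* at -0.49 (SE 0.11, adjusted p = 0.000331), the CREB coactivator *Crtc1* at -0.61 (SE 0.18, adjusted p = 0.0260) and the kinase *Rps6ka3* at -1.66 (SE 0.52, adjusted p = 0.0464). *Hras* (-0.85, SE 0.16, adjusted p = 2.1e-05) and the Ras inhibitor *Spred1* (-0.47, SE 0.15, adjusted p = 0.0486) were also lower, and *Cpe*, which encodes a sorting and processing enzyme of secretory granules, was higher at 0.21 (SE 0.06, adjusted p = 0.0261). For the difference between the regional changes 0 of 79 passed and 2 had an unadjusted p under 0.05 (2.53%, against 2.22% of all genes), *Rtn4r*, a receptor that partners p75 (1.27, SE 0.59), and *Pcsk7* (3.19, SE 1.61), both with an adjusted p of 1.

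Since *Bdnf* and *Vgf* are activity-regulated genes, 9 immediate early genes (*Fos*, *Fosb*, *Junb*, *Arc*, *Egr1*, *Egr2*, *Nr4a1*, *Dusp1* and *Ier2*) were set beside them. Post-KD against pre-KD, 0 of 9 had an unadjusted p under 0.05 in either region, with log2 fold changes of -1.59 to 0.29 (hippocampus) and -0.62 to 0.55 (frontal cortex). Their summed level ran from 148.4 to 479.0 CPM per library in the hippocampus and from 191.0 to 550.9 CPM in the frontal cortex. Between the regions 1 of 9 passed, *Egr1*, lower in the hippocampus at -0.69 (adjusted p = 3e-06 in edgeR), the direction of *Vgf* and not of *Bdnf*. Over the 20 hippocampal libraries, which share their scaling, *Bdnf* had a Pearson correlation of 0.51 with *Arc* and 0.11 with *Fos*, and *Vgf* one of 0.30 and 0.34. Over all 9 genes the hippocampal values went both ways, from -0.40 (*Fosb*) to 0.51 for *Bdnf* and from -0.24 (*Junb*) to 0.34 for *Vgf*. For *Arc* and *Fos* in the frontal cortex the 4 values lay between -0.12 and 0.18.

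The genes whose pattern over the libraries was most like that of each member were sought among 7671 genes averaging at least 20 counts in both regions, by the smaller of the 2 regional correlations of log2 CPM over 20 libraries. The closest match of all was *Nr1d2*, a nuclear receptor of the circadian clock, to *Sort1*, at a hippocampal r of 0.67 and a frontal cortical r of 0.77, followed for *Sort1* by *Slc25a46* and *Eny2*. Without the 2 libraries farthest from the median of *Sort1* the correlation with *Nr1d2* was 0.36 and 0.71. For *Bdnf* the 3 genes were *Ctnnd2* (0.44 and 0.69), *Naf1* and *Arnt*, for *Ntrk2* *Ctsl* (0.54 and 0.47), *Trio* and *Ndrg3*, for *Ntrk3* *Atp1b2* (0.48 and 0.50), *Dusp28* and *Kcnc4*, and for *Vgf* *Ube2g2* (0.49 and 0.61), *Scoc* and *Gfpt1*. The sparse *Ntf3* was followed by *Clcn3*, *Gdap1* and *Rpl13*, and *Ngfr* by *Pnrc1*, *Wdr26* and *Atp1b1*. These are the highest of many values and are descriptions only. Library properties gave correlations of the same size: over the hippocampal libraries the number of genes with a count had r = -0.64 with *Bdnf*, -0.58 with *Ntrk2* and -0.56 with *Vgf*, and in the frontal cortex 0.23, -0.36 and -0.36. The part of library complexity in these genes' values was not tested.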

How the data were processed

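Read counts per Ensembl gene, deposited by the authors as 1 unnormalized table per region, were used as they stand. Per the labels and methods, reads were checked with FastQC, aligned to mm10 with STAR 2.5.2a and counted with HTSeq 0.6.0. Strand setting and annotation release are not given in the sources used here. The members and lists were chosen with earlier results of these data known. Of 47643 identifiers, 47224 matched GENCODE M21.

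A gene entered a fit when its libraries held 10 or more counts of it together. The test was that of edgeR 4.0.16 (glmQLFit with its defaults, TMM, R 4.3.3), with Benjamini-Hochberg adjustment over all genes and a threshold of 0.05. Post-KD was compared with pre-KD per region over 20 libraries with no block. Region and the difference between regional changes were fitted over 40 libraries, with the 20 cohorts as a block. SE is the fold change divided by the square root of F. CPM are TMM-scaled counts and log2 CPM used a prior count of 2. Counting error limits all values, and reads without molecular identifiers are not independent molecules. Correlations used 100000 permutations (numpy 2.4.6, scipy 1.17.1). All tests are two-sided. The fits were tested on simulated data, where the post-KD fits called more unchanged genes than the threshold allows, so members are set beside the share of all genes.

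The alternatives were DESeq2 1.42.0, RLE factors, filterByExpr, no filter, the donor block, limma-voom (limma 3.58.1) with quality weights, leaving out *Gm42418*, each donor in turn, and, chosen after seeing the data, edgeR with adjusted deviances and leaving out donors 9 and 10. Donor numbers pair the cohorts by stool donor. After removing condition means, the pre-KD and post-KD library of a donor correlated at -0.0279 to 0.0297 in the hippocampus and -0.0561 to 0.0316 in the frontal cortex, with 0 of 10 pairs above 0.1 in each. The 2 regions of a cohort correlated at -0.0276 to 0.208, with 1 of 20 above 0.1.

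All 7 members are named, pathway genes that were called or, post-KD, had the smallest p (for regions, up to 5 each way), and the 3 genes most like each member. Some pathway genes that the rule names are counted but not reported here. Markers were set beside the regions and the post-KD changes. Antisense *Gm12523* overlaps *Sort1* and *Gm45346* overlaps *Bdnf*.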

Additional observations from a re-analysis of the deposited data

Results flagged for a closer look

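Of 28 groups of 10 libraries (7 genes, 2 regions, 2 conditions), 3 had a library farther from its nearest neighbor than Dixon's 95% critical value allows. For normally distributed values chance flags about 1 in 20 groups, but all 3 groups are of sparse genes with many libraries at 0, to which that rate does not apply. *Ntf3* in pre-KD frontal cortex was at 4.521 CPM in the library of donor 4 and at 0 in the other 9. *Ngfr* in pre-KD hippocampus was at 37.83 CPM in the library of donor 5, with the next at 15.6 CPM. *Ngfr* in post-KD hippocampus was at 10.37 CPM in the library of donor 9, with the next at 0.805 CPM.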

How the results depend on the processing

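Of 514 values of single genes under the alternatives, 482 kept their direction and their side of the threshold, 31 changed sign and 1 came to pass, and none of the 31 had an adjusted p under 0.05. DESeq2 called 0, 2, 1033 and 0 genes of all those tested (hippocampus, frontal cortex, region, difference between regional changes) against 1, 1, 554 and 3, and 1 of the 7 genes between regions, *Ntrk3*. Adjusted deviances gave 3 genes in the hippocampus and 1 for the difference. The hippocampal count was 0 with filterByExpr, which leaves out *Ntf3* and *Ngfr*, and 1291 with no filter, and limma-voom called 3 frontal cortical genes. Between regions, pre-KD cohorts gave 193 genes and post-KD cohorts 251. The causes were not tested.

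With the donor block, the pairing by stool donor gave 0 hippocampal and 3 frontal cortical genes, none of the 7, and turned frontal cortical *Ngfr* to 0.72 and hippocampal *Sort1* to 0.0391. It changed no other call. Without the cohort block 1935 genes were called between regions and 348 for the difference, and *Ngfr* was at 0.0295 between regions.

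Other changes of sign were small or in sparse genes. In the hippocampus *Sort1* was at 0.00854 with DESeq2, 0.00874 with RLE factors, 0.00623 with filterByExpr and 0.0504 without donors 9 and 10, and limma-voom put *Ntrk2* at 0.0290, *Vgf* at 0.11 and frontal cortical *Ngfr* at 0.47. Between regions *Ngfr* was at 0.42 with adjusted deviances and 1.095 in pre-KD cohorts, and post-KD cohorts put *Ntrk2* at 0.0125 and *Sort1* at -0.0299.

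Leaving out 1 donor at a time called 0 to 1 hippocampal genes, 1 to 1 frontal cortical gene, 447 to 555 between regions and 2 to 4 for the difference, and 0 of the 7 genes throughout. Hippocampal values ran from -0.15 to 0.36 for *Bdnf*, -0.0858 to 0.12 for *Sort1* and -0.18 to 0.0882 for *Vgf*, frontal cortical ones from -0.69 to 3.21 for *Ntf3*, -0.62 to 0.50 for *Ngfr* and -0.0149 to 0.12 for *Vgf*, and the difference for *Vgf* from -0.17 to 0.0151. *Ntf3* and *Ngfr* had no count in 27 and 20 of 40 libraries, and the pools hide the spread between mice.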
